A study of Mus musculus with 6 samples.

Results

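Oxidative phosphorylation is carried out by 5 protein complexes of the inner mitochondrial membrane whose subunits are encoded in both the nuclear and the mitochondrial genome. The members were chosen by name from the deposited count table: symbols starting with NDUF, UQCR, ATP5, COX4, COX5, COX6, COX7 or COX8, together with SDHA to SDHD, CYC1 and the 13 protein-coding genes of the mitochondrial genome, without 5 pseudogene symbols. This gave 110 of the 46937 symbols, 97 of them nuclear and 13 mitochondrial. Of the nuclear members 84 are structural subunits, and the others are 8 complex I assembly factors (NDUFAF), a supercomplex factor, an inhibitor and related genes. Complex I had 44 nuclear and 7 mitochondrial members, complex II 4 nuclear ones, complex III 10 and 1, complex IV 20 and 3, and complex V (ATP synthase) 19 and 2.

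RNA from biopsies of mouse lung squamous cell carcinoma was sequenced in 3 PSC and 3 PSCN libraries. PSC mice, the controls, carry constitutively active PI3K (Pik3ca H1047R), SOX2 overexpression and a deletion of Cdkn2a and Cdkn2b. In PSCN mice NSD3 T1242A, a mutated histone methyltransferase, is expressed in addition to all of these, while the PSC libraries are labelled NSD3 WT. The sources used here state neither the promoters or Cre drivers of these alleles nor the ages of the mice. Whether each biopsy came from a separate mouse is not labelled, so each p-value reflects a spread between samples that may be partly technical.

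Total counts were between 69563622 and 72807077 per library. NSD3 was at 79.7 to 102 CPM in PSC against 821 to 1932 CPM in PSCN, in the direction of the labels (CPM are counts scaled to the normalized library size). Squamous cell markers, of which 7 of 9 were in the table, summed to 128, 1482 and 5597 CPM in PSC libraries 1, 2 and 3, the order used throughout, and to 11453, 24703 and 7920 CPM in PSCN, so they were low in PSC library 1. Club cell markers went the other way, at 24473, 12642 and 1997 CPM against 1082, 383 and 1185 CPM. PSC library 3 correlated more with the PSCN libraries (mean 0.96) than with the other PSC libraries (mean 0.92) in log2 CPM across genes, which are not independent replicates. PSC libraries 2 and 3 had the female transcript XIST at 1088 and 1034 CPM, and the other 4 had it at 2.40 CPM or less. The male transcript DDX3Y was at 62.9 CPM in PSC library 1 and at 0.11 CPM or less in PSC libraries 2 and 3. In PSCN it was at 54.6, 84.7 and 73.3 CPM. By these transcripts PSC libraries 2 and 3 were female and the other 4 male, so sex and group are partly confounded. The PSC biopsies were thus not all from the same mouse.

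Electrons enter the chain at complex I from NADH and at complex II from succinate, pass through ubiquinone to complex III and by cytochrome c to complex IV, where oxygen is reduced. Complexes I, III and IV pump protons, and complex V lets them flow back to make ATP. The mitochondrial genome encodes core membrane subunits of complexes I, III, IV and V, which are transcribed as long polycistronic RNAs and cut apart, while every other subunit is made in the cytosol and imported. Some complex IV subunits have alternative forms that belong to heart and skeletal muscle or to the lung.

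The mitochondrial genome is so compact that some of its genes overlap, which matters for reading their counts. MT-ATP8 and ATP6 share 43 bases of the mitochondrial genome (chrM:7927-7969, plus strand, GRCm38), so reads that lie there cannot be assigned to only one of them. The shared stretch is shown with the start codon of ATP6 and the stop codon of MT-ATP8 in capitals.
MT-ATP8 and ATP6 overlap: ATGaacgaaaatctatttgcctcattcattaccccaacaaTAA
ND4L and ND4 overlap by 7 bases, ATP6 and COX3 by 1, and ND5 and ND6 by 14 on opposite strands. No source used here states whether counting used strand, so the values of ND5 and ND6 may share reads.

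In the comparison of PSCN with PSC, nuclear subunits mostly had somewhat higher values in PSCN and mitochondrial-encoded ones mostly lower values, the latter not without PSC library 1, and no member passed the test. Of the 110 members, 106 passed the filter on low counts; COX7B2 and COX8C had no count in any library, and COX8B and UQCRH were too low. By edgeR's quasi-likelihood test 0 of these 106 had an adjusted p under 0.05, where 1 of all 21201 genes tested did (0.00472%). At an unadjusted p under 0.05 there were 12 members higher and 2 lower in PSCN, against 9.48% and 12.2% of all genes tested. In 22 members (20.8%) each PSCN library was above each PSC library, and in 3 members (2.83%) each was below, against 15.2% and 13.4% of all genes.

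The median log2 fold change of PSCN over PSC was 0.25 over the 80 nuclear structural subunits tested, of which 66 had a positive value. It was -0.23 over the 13 mitochondrial-encoded subunits, of which 3 had a positive value, and 0.12 without PSC library 1. Over all genes tested the median was -0.01, with 49.1% positive. The normalization factors of the libraries were 1.068, 1.088 and 1.016 in PSC against 0.943, 0.912 and 0.986 in PSCN. At an equal share of counts, CPM are thus higher in PSCN. As unscaled shares of all counts, the nuclear structural subunits averaged 0.642 ± 0.0626% in PSC and 0.707 ± 0.0885% in PSCN (SD, n = 3). Those of complex I averaged 0.163% and 0.165%. The part of the scaling in the medians was not tested. In a bulk biopsy, fewer cells of a type and less RNA per cell cannot be told apart.

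**Figure D1:**
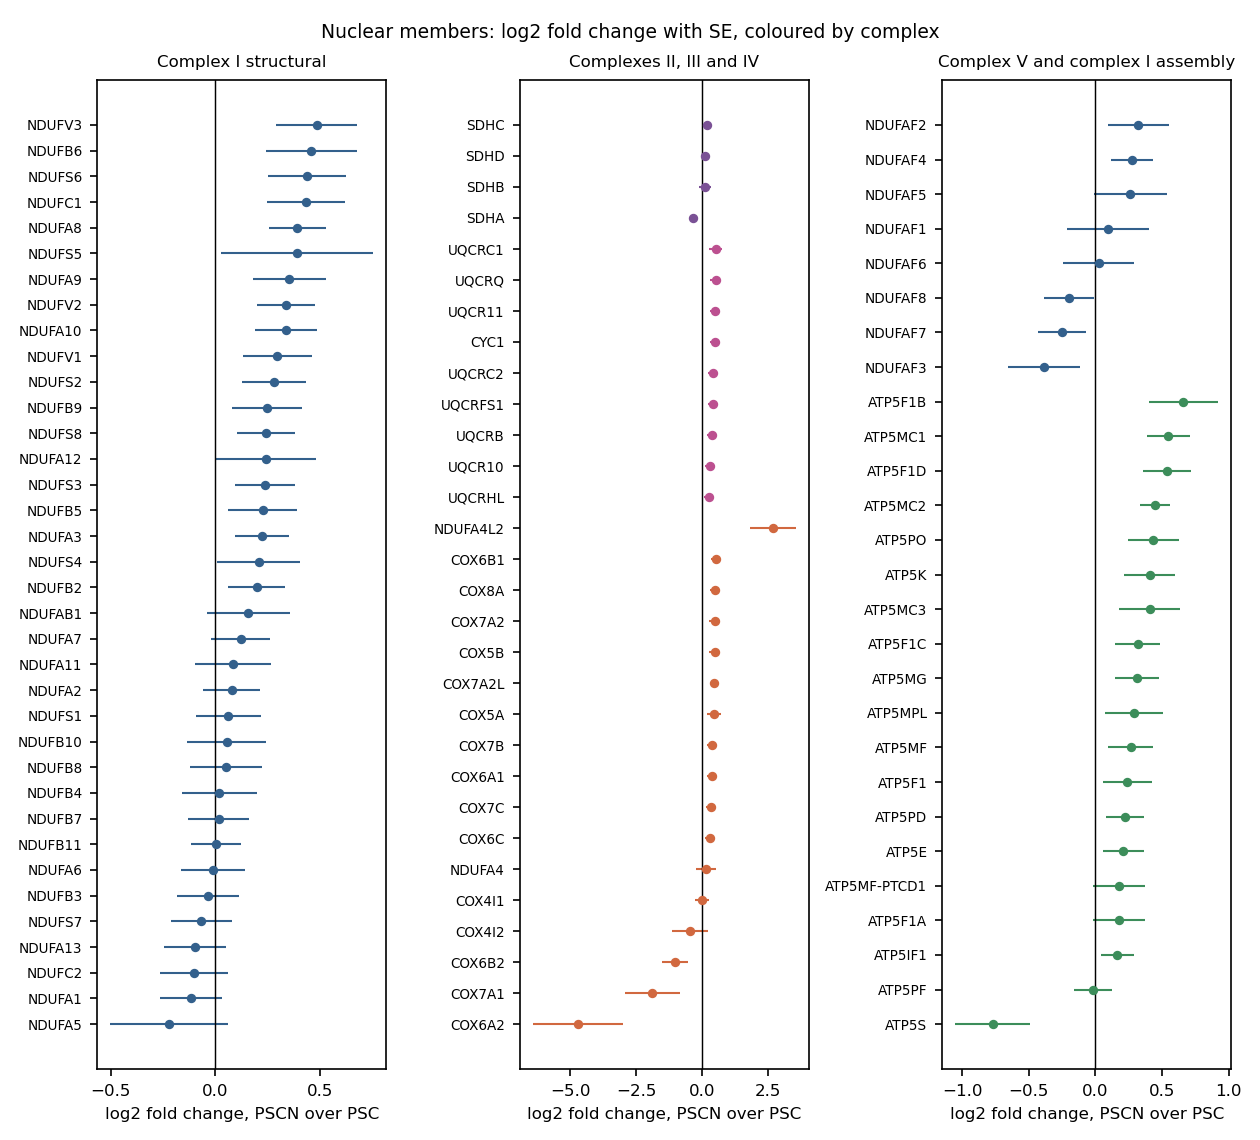
Log2 fold change of PSCN over PSC of each nuclear member tested, coloured by complex, with SE bars, from edgeR. Complex I assembly factors and other members that are not structural subunits are included. Most points of complexes I, III and V lie above 0, all 9 of complex III among them, and the lowest point of complex IV is COX6A2 at -4.72.

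The nuclear subunits differed between libraries within each group. Summed over the 84 nuclear structural subunits, levels were 6283, 5247 and 6755 CPM in PSC libraries 1, 2 and 3, against 6504, 7893 and 7998 CPM in PSCN. The groups overlapped, since PSCN library 1 was below PSC library 3. Of the 80 tested, 57 had their lowest value in PSC library 2, and in 49 PSC library 3 was above both other PSC libraries.

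**Figure D2:**
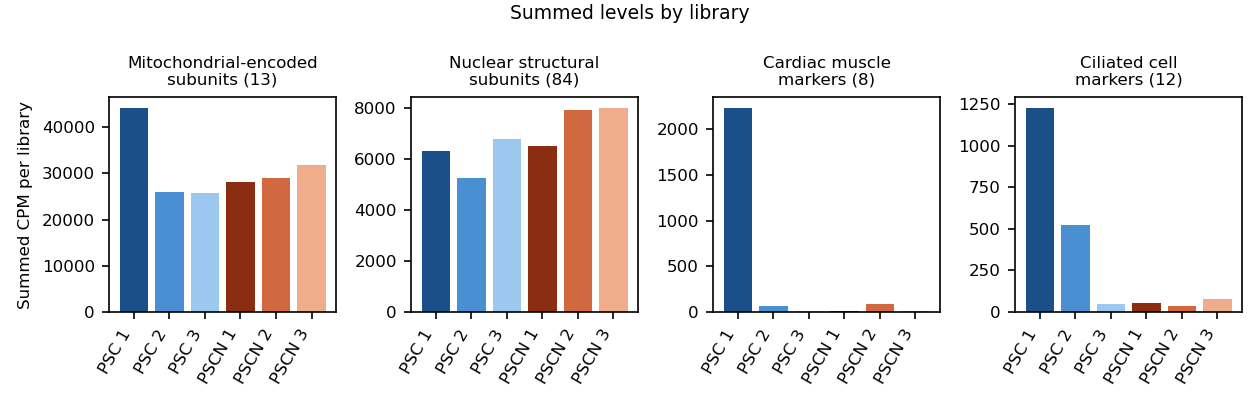
Summed CPM per library of the mitochondrial-encoded subunits, the nuclear structural subunits and the markers of cardiac muscle and ciliated cells, each on its own linear axis from 0. PSC library 1 is the highest library for the mitochondrial-encoded subunits and for both marker lists, and PSC library 2 is the lowest for the nuclear subunits.

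Complex I, the NADH dehydrogenase, had a median log2 fold change of 0.20 over its 36 nuclear subunits, 29 of them positive. Groups did not overlap in 9 (25.0%), each higher in PSCN, and overlapped in the other 27. Of all genes tested, 15.2% were higher and 13.4% lower without overlap. NDUFA8, an accessory subunit, stood at 48.9, 40.9 and 50.4 CPM in PSC, against 60.4, 59.3 and 64.1 CPM in PSCN. Every PSCN library was above every PSC library, with a log2 fold change of 0.39 (SE 0.14, edgeR adjusted p = 0.199). NDUFV2, a core subunit of the arm that takes electrons from NADH, had 61.9, 62.2 and 59.9 CPM in PSC against 66.6, 84.1 and 81.9 CPM in PSCN. The PSC libraries lay close together and below all PSCN libraries, 2 of which were well above the other (log2 fold change 0.34, SE 0.14). NDUFS6, an accessory subunit, was at 14.4, 13.4 and 17.2 CPM against 17.6, 20.7 and 22.6 CPM (0.44, SE 0.19), with no overlap and a narrow gap. NDUFV3, an accessory subunit beside NDUFV1 and NDUFV2, had 42.9, 36.5 and 52.6 CPM in PSC against 52.4, 63.0 and 69.2 CPM in PSCN. PSC library 3 was slightly above PSCN library 1 there, so the groups overlapped (0.48, SE 0.19). The 7 core subunits encoded in the nucleus had a median of 0.24 and the 29 accessory ones 0.16. Of the 3 members on the X chromosome, NDUFA1 and NDUFB11 of complex I had log2 fold changes of -0.12 (SE 0.15) and 0.00 (SE 0.12). COX7B of complex IV had 0.37 (SE 0.20), and groups overlapped in each of the 3. Sex and group cannot be fully told apart in these values.

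The complex I assembly factors, which help build the complex without staying in it, had a median of 0.06, with 5 of 8 positive. NDUFAF2 was at 6.951, 5.002 and 6.102 CPM in PSC against 7.393, 7.587 and 7.604 CPM in PSCN, higher in each PSCN library (0.32, SE 0.23). NDUFAF4 had a log2 fold change of 0.27 (SE 0.16), NDUFAF3 of -0.39 (SE 0.27) and NDUFAF7 of -0.25 (SE 0.18), with overlapping groups. NDUFAF8 was lower in each PSCN library, at 9.77, 9.94 and 8.84 against 8.21, 8.13 and 8.58 CPM (-0.20, SE 0.19).

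Complex II, succinate dehydrogenase, is also an enzyme of the tricarboxylic acid cycle and has only nuclear subunits. SDHA, its flavin-binding catalytic subunit (chromosome 13, 74322254 to 74350280, GRCm38), stood at 263, 212 and 200 CPM in PSC against 193, 163 and 173 CPM in PSCN. It was the only nuclear structural subunit with every PSCN library below every PSC library, with a log2 fold change of -0.35 (SE 0.17, edgeR adjusted p = 0.277). The gap between PSC library 3 and PSCN library 1 was small. The other subunits overlapped between groups and had positive log2 fold changes: SDHB, the iron-sulfur subunit, of 0.10 (SE 0.22), and the membrane anchors SDHC and SDHD of 0.16 (SE 0.13) and 0.11 (SE 0.14). Without PSCN library 3 the median of complex II changed from 0.10 to -0.05.

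Complex III, the cytochrome bc1 complex, had the highest median of the complexes, 0.41, with all 9 nuclear subunits tested positive. Of these, 3 (33.3%) were higher without overlap, against 15.2% of all genes tested. CYC1, cytochrome c1, which passes electrons to cytochrome c, was at 90.7, 70.7 and 104 CPM in PSC against 108, 134 and 128 CPM in PSCN. Groups did not overlap, but PSC library 3 came within a few CPM of PSCN library 1 (0.48, SE 0.19). UQCRFS1, the Rieske iron-sulfur protein, was at 76.6, 65.0 and 80.6 CPM against 82.8, 114 and 97.5 CPM, again without overlap and with PSCN library 1 the lowest of its group (0.41, SE 0.17). UQCRQ and UQCR11, small accessory subunits, had log2 fold changes of 0.50 (SE 0.21) and 0.49 (SE 0.20), with PSCN library 1 inside the PSC range. UQCRH was at 0.12 CPM or less in each library, while the symbol UQCRHL, which did not match the mouse annotation used, was at 62.0 to 93.3 CPM. The table follows human naming in places, and what each of these symbols stands for in the mouse was not resolved.

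Complex IV, cytochrome c oxidase, had 11 nuclear subunits that are not muscle- or tissue-specific forms. Their median was 0.37, with 10 positive. Of these 11, 2 (18.2%) were higher without overlap, against 15.2% of all genes tested. Over all 15 complex IV structural subunits tested, tissue-specific forms included, the median was 0.33. Of those 15, 10 were positive and 2 (13.3%) higher without overlap. COX6B1, a subunit on the side of the intermembrane space, stood at 104, 94.5 and 114 CPM in PSC against 120, 163 and 165 CPM in PSCN. The PSCN libraries were all higher, 2 of them by much more than the third (0.52, SE 0.18, edgeR adjusted p = 0.197). COX7A2L, which joins complexes III and IV into supercomplexes, was at 67.3, 79.2 and 82.0 CPM against 108, 94.6 and 113 CPM. Each PSCN library was above each PSC library, with a log2 fold change of 0.46 (SE 0.14, adjusted p = 0.192). COX8A, COX7A2, COX6A1 and COX7B, the common forms of their subunits, had log2 fold changes of 0.48, 0.47, 0.37 and 0.37 with overlapping groups, and COX4I1 of -0.02 (SE 0.27).

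NDUFA4L2 is a paralog of NDUFA4, a complex IV subunit, and is known as a target of hypoxia-inducible factor. It lies on chromosome 10 from 127514967 to 127517154 (GRCm38). NDUFA4L2 stood at 10.2, 20.7 and 73.6 CPM in PSC, against 104, 368 and 198 CPM in PSCN. All PSCN libraries were above all PSC libraries, and PSC library 3 was several times the other PSC libraries. The log2 fold change was 2.68 (SE 0.86), the highest of all members, with an edgeR adjusted p of 0.194. Adjusted p was 0.0139 with DESeq2, 0.0357 with limma-voom, 0.0456 in edgeR without PSC library 3 (log2 fold change 3.87) and 0.411 without PSC library 1 (2.25). Without PSC library 3 it was the only member called, where 3.39% of all genes were called higher and 5.4% lower, and without PSC library 1 no member was, against 0.0046% of genes called higher. NDUFA4 itself had 119, 65.5 and 166 CPM against 92.9, 161 and 138 CPM, with overlapping groups (0.16, SE 0.38). Per kilobase of exon, the level of NDUFA4L2 relative to NDUFA4 was 0.108, 0.398 and 0.558 in PSC and 1.42, 2.89 and 1.81 in PSCN. NDUFA4L2 was thus below its paralog in each PSC library and above it in each PSCN library.

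**Figure D3:**
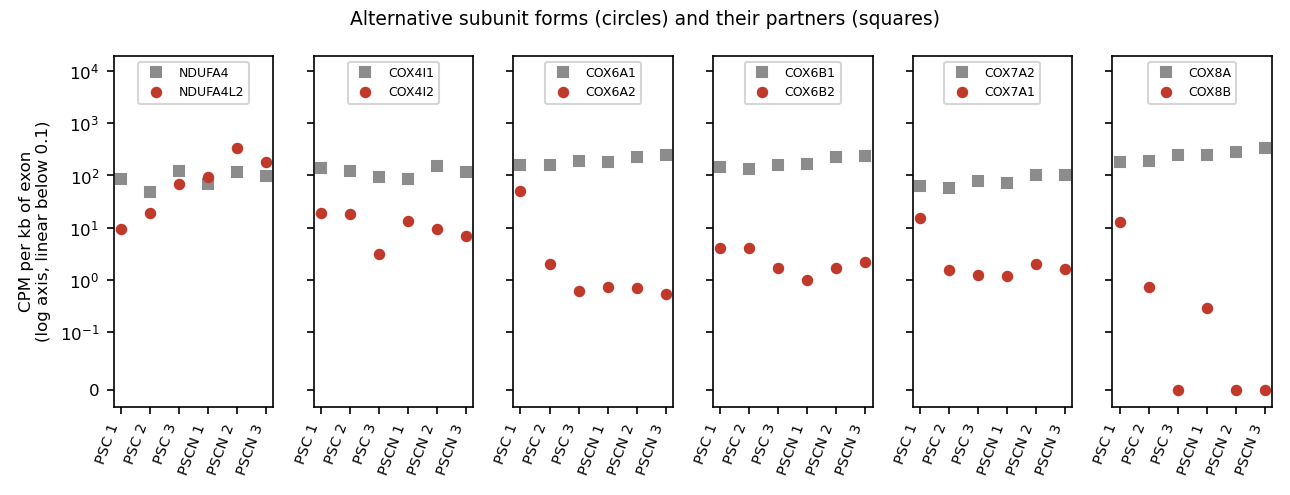
CPM per kilobase of exon (log axis, linear below 0.1) of 6 alternative complex IV subunit forms, as circles, and their common partners, as squares, in each of the 6 libraries. NDUFA4L2 crosses NDUFA4 between the groups, and COX6A2, COX7A1 and COX8B stand out in PSC library 1.

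The muscle forms of complex IV subunits stood out in 1 library. COX6A2, the heart and skeletal muscle form of COX6A1, was at 33.7, 1.35 and 0.42 CPM in PSC against 0.50, 0.48 and 0.36 CPM in PSCN. COX7A1, the muscle form of COX7A2, was at 8.15, 0.83 and 0.67 CPM against 0.64, 1.07 and 0.88 CPM. COX8B, the muscle form of COX8A, was at 4.58 CPM in PSC library 1, 0.26 in PSC library 2, 0.10 in PSCN library 1 and 0 in the other 3. PSC library 1 was high in all of these, and the other libraries of the groups overlapped. Log2 fold changes of COX6A2 and COX7A1 were -4.72 (SE 1.70) and -1.90 (SE 1.04), and -0.99 and 0.20 without PSC library 1. COX4I2, the form known from the lung, had 15.4, 14.6 and 2.51 CPM against 10.6, 7.43 and 5.51 CPM, with PSC library 3 the lowest (-0.46, SE 0.68). COX6B2, a form known from testis, had 4.57, 4.58 and 1.89 CPM against 1.11, 1.90 and 2.40 CPM (-1.03, SE 0.49). The groups overlapped in COX6B2, but relative to COX6B1 per kilobase it was lower in each PSCN library.

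Markers of cardiac muscle were high in the same library. Of 8 cardiac markers, 7 were highest in PSC library 1, and MYL2, a ventricular one, was at 0 there. Their summed level was 2239, 66.3 and 7.86 CPM in PSC against 15.8, 86.0 and 16.0 CPM in PSCN, with MYH6, the alpha myosin heavy chain of heart, at 1294 CPM in PSC library 1. Skeletal muscle markers summed to 34.7 CPM in PSC library 1, 4.96 times the next library, and CKM alone was at 31.9 CPM there. Only 3 of these 8 markers were highest in PSC library 1, and MYH1, MYH2 and MYH4 were at 0 there. Adipocyte markers, white and brown, summed to 29.8 CPM in PSC library 1, 2.18 times the next library, with 5 of 7 highest there. FABP4 alone was at 21.9 CPM in that library, and UCP1 was at 0. The part of these cells in the values of COX6A2, COX7A1 and COX8B was not tested.

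Complex V had a median of 0.31 over 16 structural subunits, 15 of them positive. Groups did not overlap in 5 (31.25%), each higher in PSCN, against 15.2% of all genes tested. The c ring, the rotor that protons turn, is encoded by ATP5MC1, ATP5MC2 and ATP5MC3, whose proteins are the same once imported and processed. ATP5MC2 (chromosome 15, 102662864 to 102672352, GRCm38) stood at 58.0, 54.9 and 53.8 CPM in PSC, against 74.0, 74.6 and 78.3 CPM in PSCN. Both groups were tight and far apart, averaging 55.6 ± 2.20 CPM in PSC against 75.6 ± 2.34 CPM in PSCN (SD, n = 3). Its log2 fold change was 0.44 (SE 0.11, edgeR adjusted p = 0.187), the lowest adjusted p of the members. ATP5MC1 had 42.4, 35.2 and 43.6 CPM against 50.8, 59.9 and 66.3 CPM, with no overlap (0.55, SE 0.16, adjusted p = 0.191). ATP5MC3 had 137, 110 and 175 CPM against 150, 206 and 203 CPM, where PSC library 3 was above PSCN library 1 (0.41, SE 0.23).

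Among the head and central stalk subunits, ATP5F1D, the delta subunit, was at 99.8, 98.6 and 132 CPM in PSC against 139, 167 and 173 CPM in PSCN, with no overlap (0.54, SE 0.18). ATP5F1B, the catalytic beta subunit, was at 574, 428 and 725 CPM against 765, 991 and 974 CPM (0.66, SE 0.26), while its partner ATP5F1A, the alpha subunit, overlapped between groups (0.17, SE 0.20). PSC library 3 was the highest PSC library in all of these. ATP5IF1, which inhibits the enzyme when it runs in reverse, had a log2 fold change of 0.17 (SE 0.13) with overlapping groups. ATP5S, a factor associated with the enzyme, was lower in each PSCN library, at 10.1, 9.03 and 6.54 CPM in PSC against 6.14, 4.47 and 4.42 CPM (-0.77, SE 0.28, edgeR adjusted p = 0.206).

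The promoters of nuclear members were searched because NRF1, GABP and YY1 are known regulators of respiratory chain genes. RefSeq promoters (GRCm38.p6, 250 bases before to 50 after the RefSeq gene start) matched 77 of 97 nuclear members, with 82 promoters. RefSeq starts can differ from the GENCODE M21 gene positions given elsewhere. The windows shown for ATP5MC2 and ATP5PF lie inside the genes as GENCODE M21 places them. The NRF1 and YY1 elements searched are the runs of capitals in the sequences shown here, and that of GABP is CCGGAAG, each on both strands. The NRF1 element was in 7 member promoters (8.54%) and in 0.971% of all 32851. The GABP element was in 18 (22.0%) against 8.86%, and the YY1 element in 6 (7.32%) against 0.852%. The 7 genes with the NRF1 element had a median log2 fold change of 0.37, from 0.08 to 0.51, and the 67 tested without it 0.24. With the GABP element the median was 0.24 against 0.26 without it, and with the YY1 element 0.09 against 0.25. Of the promoters with the NRF1 element, 4 are shown, that of ATP5MC2 because it had the lowest adjusted p and the others to compare the flanks, and 1 with the YY1 element. Each is given on the strand of its gene. Relative to the RefSeq gene start, the YY1 element shown, that of ATP5PF, starts at -88. Those of NDUFA9, NDUFAF8, NDUFS4, NDUFS6 and NDUFS7 start after the gene start, at 10 to 35.
ATP5MC2 (chr15:102671070-102671099, minus strand): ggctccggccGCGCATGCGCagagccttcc
ATP5K (chr5:108434430-108434459, minus strand): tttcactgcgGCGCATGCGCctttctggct
COX6A1 (chr5:115349101-115349130, minus strand): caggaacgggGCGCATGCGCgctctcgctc
NDUFA11 (chr17:56717692-56717721, plus strand): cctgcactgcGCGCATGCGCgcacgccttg
ATP5PF (chr16:84835045-84835074, minus strand), YY1 element: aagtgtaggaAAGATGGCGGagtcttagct
A match of letters is a description and not a measured binding site.

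The 13 mitochondrial-encoded subunits took 4.71%, 2.83% and 2.63% of all counts in PSC libraries 1, 2 and 3, against 2.65%, 2.64% and 3.13% in the PSCN libraries in the same order. On this unscaled measure PSC library 1 stood apart, and the other 5 libraries lay within a narrow range. The means were 3.39 ± 1.15% in PSC and 2.81 ± 0.281% in PSCN (SD, n = 3). Without PSC library 1 the difference of the means changed from -0.583 to 0.0781 percentage points, and the median log2 fold change of the 13 genes from -0.23 to 0.12. In CPM, the measure used for the nuclear subunits, the 13 genes summed to 44248, 26038 and 25883 in PSC against 28167, 28932 and 31782 in PSCN. There each PSCN library was above PSC libraries 2 and 3. Each of the 13 genes was highest in PSC library 1, from 1.06 times the next library in COX1 to 1.96 times in ND2.

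**Figure D4:**
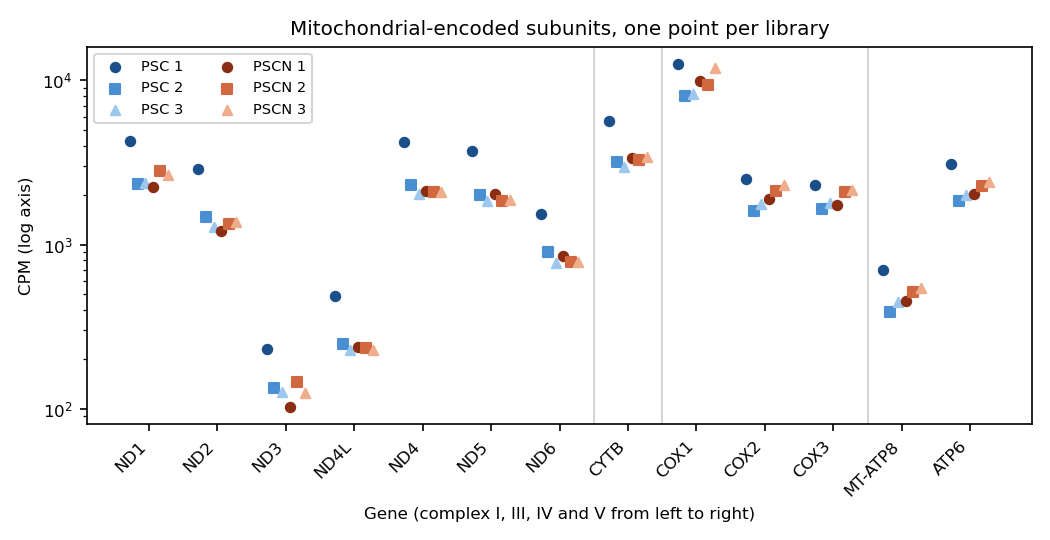
CPM of each of the 13 mitochondrial-encoded genes in each library, on a log axis. PSC library 1 is the highest in every gene, by the least in COX1 and by the most in ND2.

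The ND genes encode core membrane subunits of complex I. ND2 had 2888, 1470 and 1275 CPM in PSC against 1208, 1338 and 1379 CPM in PSCN, and ND4 had 4215, 2310 and 2028 CPM against 2128, 2101 and 2083 CPM. Apart from PSC library 1 the libraries of both groups lay together in these genes. All 7 ND genes had negative log2 fold changes, from -0.52 (SE 0.37) in ND2 to -0.23 (SE 0.34) in ND1, with a median of -0.41. Without PSC library 1 that of ND2 was -0.07 and that of ND1 0.12.

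COX1, the catalytic subunit of complex IV, was the most abundant member per length, at 6468 CPM per kilobase over the 6 libraries. Its values were 12570, 7989 and 8264 CPM in PSC against 9862, 9422 and 11853 CPM in PSCN. PSCN libraries lay between PSC library 1 and the other PSC libraries, and the log2 fold change was 0.11 (SE 0.37). COX2 and COX3 had log2 fold changes of 0.10 (SE 0.27) and 0.06 (SE 0.25), CYTB of complex III -0.23 (SE 0.35), and ATP6 and MT-ATP8 of complex V -0.05 (SE 0.29) and -0.03 (SE 0.27). Groups overlapped in all of these. With upper quartile normalization COX3 was at -0.01. Mitochondrial-encoded members had a median of 2490 CPM per kilobase, and nuclear structural subunits of 40.5.

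Within mitochondrial mRNA the balance of complex I and complex IV genes did not overlap between the groups, a comparison chosen after the values were seen. The ratio of the 7 ND genes' counts to those of COX1 to COX3 was 1.0002, 0.836 and 0.731 in PSC against 0.651, 0.678 and 0.559 in PSCN. Every PSCN library was below every PSC library, with means of 0.856 ± 0.136 and 0.629 ± 0.0627 (SD, n = 3). Because the ratio was chosen after its values were seen, no p-value was taken from this separation. The difference was from -0.289 to -0.154 with each library left out in turn, and -0.154 without PSC library 1.

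Of the 13 genes, the share of mitochondrial mRNA counts was higher in each PSCN library for COX1 and lower for ND2, ND4 and ND4L, and the groups overlapped in the other 9. COX1 took 28.4%, 30.7% and 31.9% in PSC and 35.0%, 32.6% and 37.3% in PSCN. ND4 took 9.53%, 8.87% and 7.84% against 7.56%, 7.26% and 6.55%. These shares sum to the whole within a library, so a higher share of COX1 lowers the sum of the others. In CPM 0 of the 13 genes were higher and 0 lower without overlap, against 15.2% and 13.4% of all genes tested. For shares of mitochondrial mRNA no rate over all genes exists to set beside the count.

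**Figure D5:**
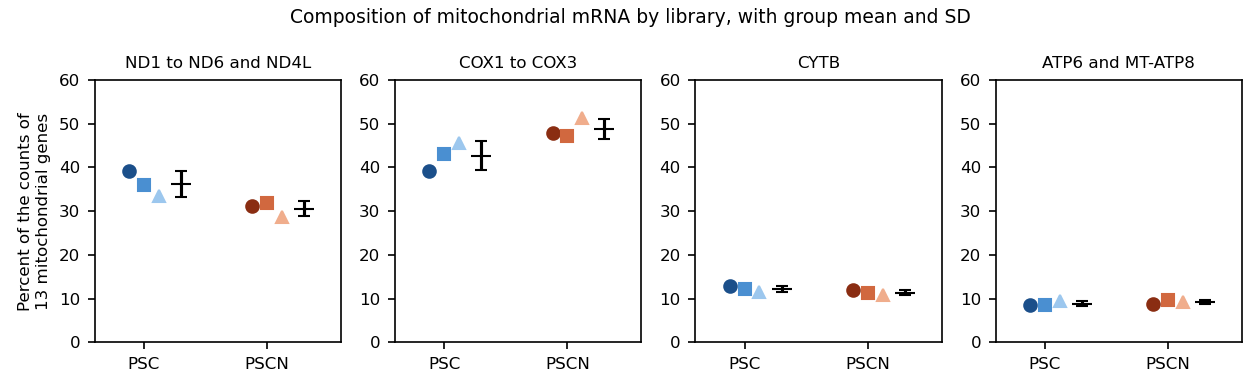
Percent of the counts of the 13 mitochondrial-encoded genes that fell in the 7 ND genes, in COX1 to COX3, in CYTB and in ATP6 with MT-ATP8, per library, with the group mean and SD (n = 3). The PSC and PSCN libraries do not overlap in the ND and COX panels and overlap in the others.

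Ciliated cell markers were high in PSC libraries 1 and 2, where they summed to 1228 and 522 CPM, against 47.4 CPM in PSC library 3 and 34.9 to 80.2 CPM in PSCN. Of 12 such markers 11 were highest in PSC library 1. Club cell markers were also highest in PSC libraries 1 and 2, and each PSC library was above each PSCN library. PSC libraries 1 and 2 also had the highest ratios of ND to COX counts. The part of ciliated, club or cardiac cells in that ratio and in the level of mitochondrial RNA was not tested.

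Genes that act on the respiratory chain from outside the complexes were taken from 7 lists, in which 0 genes had an adjusted p under 0.05 by edgeR. Of the 151 genes tested in all lists, 17 were higher and 7 lower at an unadjusted p under 0.05, against 9.48% and 12.2% of all genes. DESeq2 called 7 of them higher and 5 lower, against 5.42% and 8.89%, and limma-voom 15 and 4, against 8.43% and 5.84%. Counts without overlap between groups are to be read against 15.2% of all genes higher and 13.4% lower. Assembly factors of complexes II to V had a median of 0.01, with 19 of 37 positive, 6 higher (16.2%) and 2 lower (5.41%) without overlap. UQCC2, which helps translate and assemble cytochrome b, was at 22.5, 19.3 and 29.1 CPM in PSC against 39.4, 49.1 and 44.4 CPM in PSCN, well apart (0.91, SE 0.20, adjusted p = 0.179). COX20, a chaperone of COX2, was at 13.4, 11.9 and 12.9 CPM against 9.20, 8.58 and 7.99 CPM, lower in each PSCN library (-0.57, SE 0.18). CMC2, a complex IV assembly factor, was higher without overlap (0.75, SE 0.30). Other complex I assembly factors had a median of -0.09, with 5 of 11 positive. ECSIT and DMAC1 were higher without overlap (0.27, SE 0.15, and 0.31, SE 0.15), and NUBPL, which delivers iron-sulfur clusters to complex I, was lower (-0.53, SE 0.25).

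Regulators of mitochondrial biogenesis went in both directions, with 9 of 13 positive and a median of 0.20. PPARGC1A, the coactivator PGC-1 alpha, was at 19.93, 10.97 and 9.398 CPM in PSC against 2.81, 0.85 and 2.71 CPM in PSCN. The groups were far apart, with a log2 fold change of -2.66 (SE 0.57, edgeR adjusted p = 0.177). ESRRG, a nuclear receptor that works with it, was at 6.30, 1.81 and 0.76 CPM against 0.38, 0.05 and 0.35 CPM, lower in each PSCN library and highest in PSC library 1 (-3.51, SE 1.09). PERM1, a regulator known from muscle, was at 13.8, 9.58 and 16.1 CPM against 23.9, 43.0 and 27.6 CPM, higher without overlap (1.26, SE 0.31).

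Mitochondrial transcription and RNA processing genes had a median of 0.14, with 17 of 27 positive, 6 higher (22.2%) and 1 lower (3.70%) without overlap, against 15.2% and 13.4% of all genes. ELAC2, which cuts tRNAs out of the polycistronic RNA, was at 22.1, 25.0 and 27.2 CPM in PSC against 36.3, 39.9 and 34.2 CPM in PSCN, clearly separated (0.57, SE 0.15, edgeR adjusted p = 0.187). SUPV3L1, a helicase of mitochondrial RNA decay, and FASTKD3, a mitochondrial RNA-binding protein, were also higher in each PSCN library (0.42, SE 0.17, and 0.56, SE 0.21).

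Genes of the tricarboxylic acid cycle and pyruvate oxidation had a median of -0.02, with 12 of 25 positive. IDH2, the mitochondrial NADP-dependent isocitrate dehydrogenase, was at 136, 111 and 81.6 CPM in PSC against 62.2, 52.3 and 58.6 CPM in PSCN, lower in each PSCN library (-0.92, SE 0.21, edgeR adjusted p = 0.18). MDH2, malate dehydrogenase, was at 159, 125 and 183 CPM against 212, 248 and 253 CPM, higher in each (0.61, SE 0.19). PDK2, a kinase that inhibits pyruvate dehydrogenase, was at 46.8, 34.5 and 16.6 CPM against 18.1, 9.36 and 10.2 CPM, with PSC library 3 inside the PSCN range (-1.38, SE 0.45).

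In the membrane and transport list the median was 0.36, with 14 of 20 positive, and 10 of 20 higher and 1 lower without overlap, against 15.2% and 13.4% of all genes. VDAC1, the channel of the outer membrane, was at 193, 170 and 257 CPM in PSC against 274, 471 and 386 CPM in PSCN (0.87, SE 0.27). PHB and PHB2, which form a scaffold ring of the inner membrane, had log2 fold changes of 0.52 (SE 0.16) and 0.55 (SE 0.18), without overlap. Electron carriers and ubiquinone synthesis genes had a median of 0.08, with 13 of 19 positive. COQ10B and GPD2, a glycerol phosphate dehydrogenase that feeds ubiquinone, were higher without overlap (0.65, SE 0.23, and 0.82, SE 0.33). CYCS, cytochrome c, overlapped between groups (0.58, SE 0.27).

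Other tests on the same counts called more genes. DESeq2 called ATP5MC1, ATP5MC2, COX7A2L and NDUFA4L2 higher and ATP5S lower, 5 of 104 members with an adjusted p, where 5.42% and 8.89% of all genes were called higher and lower. Limma-voom called 14 members higher and 1 lower, against 8.43% and 5.84% of all genes. In the authors' deposited table, of 105 members with an adjusted p, 2 were under 0.05, both higher in PSCN: ATP5MC2 (log2 fold change 0.439, adjusted p = 0.0105) and NDUFA4L2 (2.699, adjusted p = 0.0149). Of all genes in the authors' deposited table, 3.92% were called higher and 8.1% lower.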

How the data were processed

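Total RNA libraries of 3 PSC and 3 PSCN biopsies were read at 76 nt, per the labels' protocols. The GRCm38 genome and the tools Trimmomatic, HISAT2, StringTie and DESeq2 appear, without versions or roles, in the submitters' processing notes. The authors deposited estimated counts per gene symbol as whole numbers, whose columns were assigned to libraries from a letter (C or N) and a replicate number, which no label states outright. A further deposited table of the authors holds mean normalized signal, log2 fold changes with standard errors, the Wald statistic (a score) and p-values with adjusted p-values; the signal and the score were not used.

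Counts were filtered with filterByExpr, scaled by TMM and tested in R 4.3.3 by edgeR 4.0.16 (quasi-likelihood), with p-values adjusted over 21201 genes by Benjamini-Hochberg and a threshold of 0.05. Each SE was derived from F as the absolute log2 fold change over its root. Of the members, 107 matched GENCODE M21, whose exon union gave lengths for CPM per kilobase. Alternatives were RLE and upper quartile normalization, normalization without the mitochondrial genes, DESeq2 1.42.0, limma-voom with quality weights (limma 3.58.1), no filter, at least 1 CPM in 3 libraries, each library left out, a replicate block and sex as a covariate, with sex read from XIST. The fits were tested on simulated data.

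The members and lists were chosen with earlier results of these data known. Named genes were all mitochondrial members, SDHA to SDHD, the 4 members with the smallest p in each other nuclear complex and among the NDUFAF factors, subunits with tissue-specific partners, ATP5IF1, members on the X chromosome, the 3 genes with the smallest p in each other list, and NSD3, XIST and DDX3Y. NDUFAF8, ATP5F1A, ATP5F1B, ATP5MC3, UQCRH, UQCRHL, MYH6, MYL2 and the promoters shown were chosen after their values were seen. Since no molecular identifiers were used, reads are not independent molecules.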

Additional observations from a re-analysis of the deposited data

How the results depend on the processing

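The precision was limited by the spread between 3 libraries per group. The count of all genes past the threshold moved from 1 higher and 0 lower to 1115 and 1830 with DESeq2, 1788 and 1238 with limma-voom, 3 higher with at least 1 CPM in 3 libraries, and 0 higher with sex as a covariate. PSC library 1 is the only male PSC library by XIST, so with sex as a covariate the group term compares the PSCN libraries with that 1 library and does not test the groups. Members past the threshold were 4 higher and 1 lower with DESeq2 and 14 and 1 with limma-voom. With each library left out, the counts were 0 to 751 genes higher, 0 to 1195 lower and 0 to 1 member higher, the largest without PSC library 3, where fewer samples were fitted; the cause was not tested.

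Correlations between PSC and PSCN libraries of the same replicate number were 0.211, -0.0616 and 0.0547. Those between libraries of different numbers were from -0.208 to 0.187. The replicate numbers thus gave no clear pairing, although the value of the libraries numbered 1 was the highest. The fit with the replicate block called 0 genes and 0 members and put MT-ATP8 at 0.0163.

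The median of the nuclear structural subunits was 0.41 with limma-voom. With sex as a covariate, which compares PSCN with PSC library 1 alone, that of complex I was 0.0585 and that of mitochondrial-encoded subunits -0.76. With each library left out, medians were 0.17 to 0.35 for nuclear structural subunits, -0.38 to 0.12 for mitochondrial-encoded ones, 0.10 to 0.24 for complex I, -0.0518 to 0.17 for complex II, 0.32 to 0.53 for complex III, 0.19 to 0.47 for complex IV and 0.23 to 0.44 for complex V. The range of complex IV includes its tissue-specific forms. Differences in count share were -0.964 to 0.0781 percentage points for mitochondrial-encoded and 0.0243 to 0.112 for nuclear structural subunits.

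Direction also changed for ATP6 (0.13) and MT-ATP8 (0.20) with limma-voom and for COX3 with upper quartile normalization (-0.0054). NDUFB11 changed direction with upper quartile normalization (-0.0638), no filter (-0.0246) and 1 CPM in 3 libraries (-0.0296). With sex as a covariate, against PSC library 1 alone, COX1, COX2, COX3 and NDUFB11 were at -0.28, -0.26, -0.20 and -0.0879. Left-out libraries changed the direction of 12 named genes: ATP6 (-0.19 to 0.21), MT-ATP8 (-0.19 to 0.26), COX1 (-0.0176 to 0.35), COX2 (-0.0258 to 0.32), COX3 (-0.0302 to 0.21), CYTB (-0.38 to 0.13), ND1 (-0.38 to 0.12), SDHB (-0.12 to 0.25), COX4I1 (-0.29 to 0.19), COX7A1 (-2.36 to 0.20), NDUFA4 (-0.13 to 0.51) and NDUFB11 (-0.0584 to 0.0511). Of 634 values of 71 named genes under the other alternatives, 583 kept direction and side of the threshold.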

Other observations

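The non-coding RNAs of the mitochondrial genome were measured as well. All 22 mitochondrial tRNA genes had their highest value in PSC library 1, as the 13 protein-coding genes did, and summed to 174 CPM there and to 69.3 to 79.1 CPM in the other 5 libraries. Of these, 19 passed the filter, and all 19 had negative log2 fold changes, lower on average in PSCN, with a median of -0.68 and none past the edgeR threshold. The ribosomal RNAs MT-RNR1 and MT-RNR2 had log2 fold changes of 0.30 (SE 0.30) and 0.12 (SE 0.34), with overlapping groups, and summed highest in PSCN library 2.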
